A study of Homo sapiens with 8 samples.

Results

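The baseline transcriptome of TAL1-FKBP12 Jurkat cells was described from the 2 libraries of cells that had received DMSO, the solvent control, for 24 hours, out of 8 libraries in all. Jurkat is an established human line of T-cell acute lymphoblastic leukaemia (T-ALL). In this derivative TAL1, which encodes a transcription factor of the basic helix-loop-helix class, carries FKBP12, the tag that the degrader dTAG-13 binds. The DMSO cells had received neither dTAG-13 nor GSI, the drugs of the 3 other groups (dTAG-13, GSI and their combination). The libraries were chosen by their labels, and no treatment was compared. The sample titles carry a code, SC3, that the labels do not explain. The labels do not state whether the cells were 1 clone, how the tag was introduced, or whether the replicates came from separate cultures, so the spread between the replicates may be technical.

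T-ALL cells resemble thymocytes stopped during maturation, when the T cell receptor genes are being rearranged and CD1 molecules are at the surface. TAL1 is normally active in blood progenitors and in the erythroid lineage. In part of T-ALL it is switched on in thymocytes, where it binds DNA with E proteins (TCF3, TCF12), LMO and LDB1 adaptors, GATA3, RUNX1 and MYB. NOTCH1 is the receptor that directs progenitors into the T lineage, and it is often mutated in this leukaemia.

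Levels are in CPM, counts scaled to library size and composition, and are given for replicate 1 and then replicate 2. A gene is called expressed where it reached at least 1 CPM in both libraries, low where it had counts but did not reach that level, and not detected where it had 0 counts in both. The total counts were 17544319 and 21921662, so 1 CPM stood for 17.4 and 22 counts. At this depth a count of 0 allows up to 0.173 and 0.136 CPM (3 counts), which covers counting error only. For comparisons of a gene with all expressed genes, CPM was divided by the exon length, giving CPM per kilobase. Orders within a list or family are by CPM unless per kilobase is stated. They take no account of gene length and can differ per kilobase.

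Of the 63677 listed genes, 12900 (20.3%) were expressed, 12197 were low and 38580 were not detected. Among the 19462 protein-coding genes 11147 (57.3%) were expressed, 3573 were low and 4742 were not detected. Expressed long intergenic noncoding RNA genes numbered 337 of 6595. Levels of at least 100 CPM in both libraries were reached by 2236 genes, and levels of at least 1000 CPM by 73. Expressed nuclear protein-coding genes had a median of 7.22 CPM per kilobase, with quartiles at 2.59 and 17.1, and the highest 5% lay above 66.8.

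**Figure D1:**
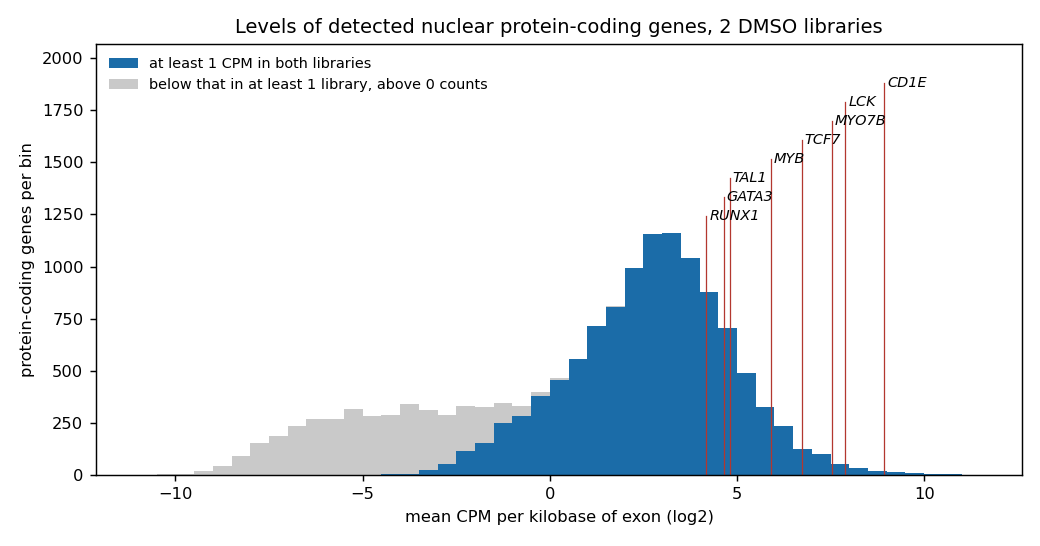
Nuclear protein-coding genes with at least 1 count in the DMSO libraries, by mean CPM per kilobase of exon (log2, horizontal axis) and number of genes per bin (vertical axis). Blue bars hold the 11134 expressed genes with a known length and grey bars the low genes, stacked on the blue; red lines mark named genes, from RUNX1 at 18.1 CPM per kilobase to CD1E at 489.

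All 5 genes that mark these cells were expressed. TAL1 had 153 and 167 CPM (2659 and 3664 counts), and per kilobase its mean level of 28.0 exceeded that of 85.0% of expressed nuclear protein-coding genes. MYB had 323 and 337 CPM, and its 60.0 CPM per kilobase exceeded 94.3% of them. RUNX1 had 273 and 292 CPM and GATA3 89.3 and 82.4 CPM. NOTCH1 had 114 and 118 CPM, and its 11.2 CPM per kilobase exceeded 63.5% of them. The markers named for these cells were thus present in both libraries. A read of the tag itself can also fall on FKBP1A, the gene of FKBP12, which had 761 and 743 CPM and exceeded 99.4% per kilobase. The part of the tag in this level was not tested.

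The most abundant nuclear messages were those of protein synthesis, folding, glycolysis and the cytoskeleton. ACTB, which encodes beta-actin, led the nuclear genes with 6984 and 7297 CPM. GAPDH, a glycolytic enzyme, had 6141 and 5204 CPM, and EEF1A1, which brings aminoacyl-tRNA to the ribosome, had 5765 and 5476 CPM. The chaperone genes HSP90AB1 (3434 and 3560 CPM), HSPA8 (3262 and 3369 CPM) and HSP90AA1 (2220 and 2355 CPM) were in the same range. So were the glycolytic genes ENO1 (3741 and 3214 CPM), LDHA (2613 and 2246 CPM), PKM (2388 and 2118 CPM) and ALDOA (2376 and 2107 CPM). The other places among the 20 highest nuclear genes went to TUBB, ACTG1, EEF2, RPS2, RPLP0, RPS6, RPL4, GNB2L1, PTMA and YBX1, at 1917 to 3329 CPM. These are housekeeping genes of growth, and no gene of the T lineage is among these 20.

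Ranked per kilobase, lymphoid genes did enter. ACTB (2029 CPM per kilobase), GAPDH (1903) and RPS2 (1291) led, followed by HSP90AB1, FTL, YBX1, TUBB, EEF1A1, ACTG1 and RPL19. ARHGDIB, a GTPase regulator of blood cells, followed with 878 CPM per kilobase and TRBC2, a constant segment of the T cell receptor beta chain, with 877. RPS6, EEF2 and RPL13A (734) completed the first 15. Genes with processed copies elsewhere in the genome, such as RPS2 and GAPDH, can share reads with them.

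The share of counts in these classes was close in both libraries. The 100 most abundant genes, mitochondrial ones included, held 22.3% and 21.5% of counts, and 904 and 947 genes were enough to hold 50%. Mitochondrially encoded genes held 8.06% and 7.97%, and the 3 highest of them were above every nuclear gene: MT-CO1 (12954 and 12275 CPM), MT-ND4 (11121 and 11537 CPM) and MT-CO2 (10990 and 9456 CPM), subunits of respiratory complexes. The 84 ribosomal protein genes held 6.40% and 5.75%, and 17 glycolytic genes held 2.35% and 2.08%. For the mitochondrial, ribosomal protein and glycolytic shares, the 95% Wilson interval is at most 0.0127 percentage points to either side. The differences between the libraries in these shares are thus wider than counting error.

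Among long noncoding RNAs, the highest were FAM211A-AS1 (301 and 302 CPM), MALAT1, a nuclear RNA (231 and 234 CPM), and OIP5-AS1 (218 and 226 CPM). SNHG1, DANCR, GAS5, SNHG3 and SNHG15, several of which host small nucleolar RNAs in their introns, had 101 to 203 CPM. For antisense genes the strand setting of the counting is not known, so reads of the partner gene may be included. Of 59 protein-coding histone genes with HIST names 3 were expressed, against 57.3% of all protein-coding genes. The highest, HIST1H2BK, had 4.89 and 4.50 CPM. Replication-dependent histone messages lack a poly(A) tail, and whether this bears on their levels here was not tested.

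Of 310 transcription factor genes in the lists, 169 (54.5%) were expressed, 84 were low and 57 were not detected, against 57.3% expressed among all protein-coding genes. The T-lineage factors stood above that share. Of 18 thymocyte factors 17 were expressed, and the remaining one, IKZF3, was low with 0.690 and 0.409 CPM. TCF7, the NOTCH-induced factor that starts the T programme, had 1068 and 1059 CPM. Its relative LEF1 had 589 and 567 CPM. IKZF1, which encodes Ikaros, had 343 and 372 CPM, and ETS1 had 318 and 336 CPM. BCL11B, needed for commitment to the T lineage, had 91.1 and 100.4 CPM.

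The partners of TAL1 were present in part. Of 16 genes of the TAL1 complex and its relatives, 13 (81.25%) were expressed, against 57.3% of all protein-coding genes. The E proteins TCF3 (434 and 451 CPM) and TCF12 (214 and 227 CPM) were high, as was LDB1, the bridging adaptor (158 and 156 CPM). The LMO adaptors were not alike: LMO4 had 23.8 and 22.9 CPM and LMO1 6.44 and 6.36 CPM, while LMO2 and LMO3 were not detected. The relative LYL1 had 6.33 and 6.54 CPM and TAL2 0.230 and 0.182 CPM. ID3, an inhibitor that binds E proteins, had 88.5 and 83.9 CPM, above ID1 (13.2 and 14.9 CPM) and ID2 (4.66 and 4.59 CPM).

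Genes that define other subtypes of T-ALL were mostly low or not detected. Of 23 oncogenic factors, which include TAL1, MYB and MYC, 7 (30.4%) were expressed, against 57.3% of all protein-coding genes, and 10 were not detected. The 10 were LMO2, LMO3, OLIG2, TLX1, TLX3, NKX2-1, NKX2-5, HOXA9, HOXA10 and HOXA11. MYC, a growth regulator downstream of NOTCH1, had 348 and 340 CPM, while MYCN had 0.863 and 0.864 CPM and MYCL 2.36 and 1.82 CPM. The homeobox gene TLX2, a relative of TLX1 and TLX3, had 8.23 and 6.59 CPM.

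**Figure D2:**
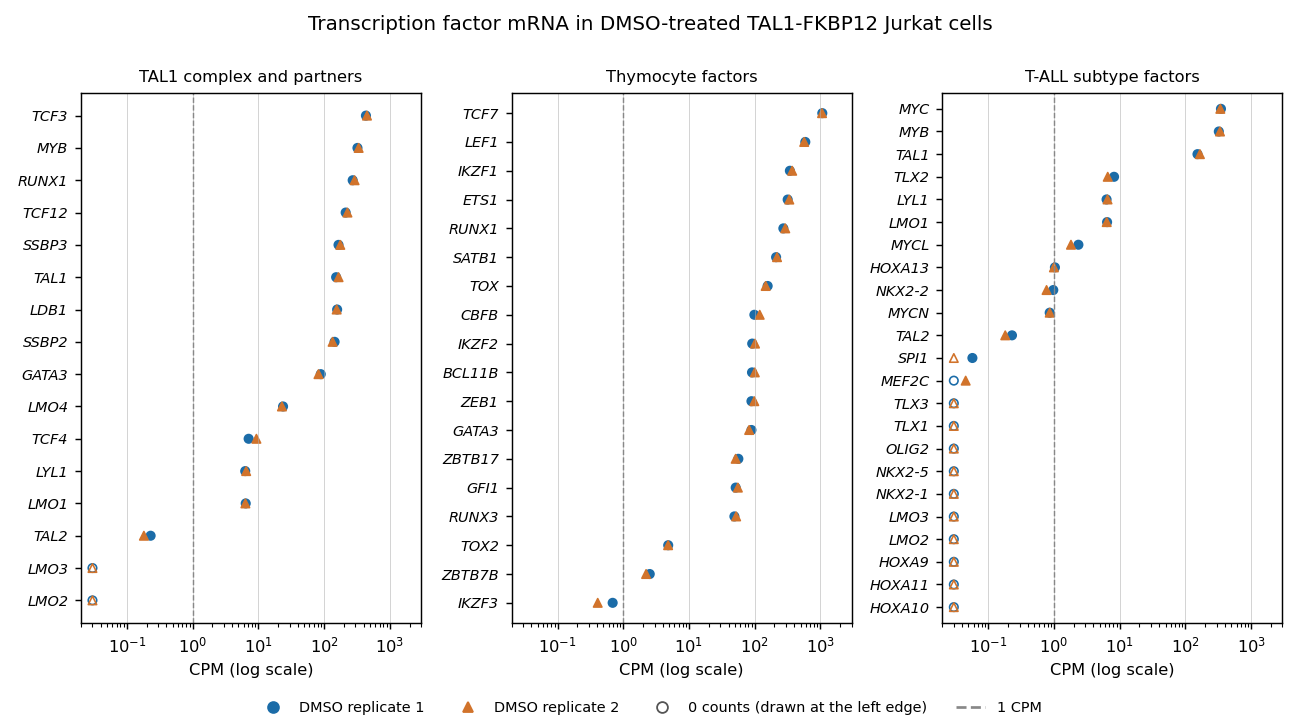
CPM (log scale) of the TAL1 complex and partners, thymocyte factors and T-ALL subtype factors in each DMSO library; circles are replicate 1, triangles replicate 2, open symbols at the left edge are 0 counts and the dashed line is 1 CPM. TCF7 reached 1068 and 1059 CPM, and LMO2, TLX1 and TLX3 had 0 counts in both libraries.

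Members of a factor family differed widely in level. Of the 4 genes of the RUNX list, counted with their partner CBFB (98.9 and 119 CPM), all were expressed, and RUNX1 was above RUNX3 (49.1 and 52.2 CPM) and RUNX2 (23.3 and 22.1 CPM). MYBL2, a cell cycle factor of the MYB family, had 443 and 440 CPM and was the highest of the listed factors per kilobase (159 CPM per kilobase). Of the GATA family, GATA2 had 1.73 and 1.32 CPM, far below GATA3, and GATA4 and GATA5 were not detected. Of 27 ETS genes 16 (59.3%) were expressed, near the 57.3% of all protein-coding genes. By CPM, ETS2 (139 and 140 CPM), FLI1 (120 and 127 CPM) and ELF1 (101 and 108 CPM) came after ETS1. In the SOX family SOX4 (294 and 302 CPM) was followed by SOX12 (80.6 and 77.6 CPM) and SOX11 (36.7 and 41.5 CPM), and 8 of 19 members were not detected.

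Homeobox genes were expressed in a scattered way. By CPM, HOXB3 (29.7 and 30.3 CPM), HOXB4 (27.4 and 24.0 CPM) and HOXB7 (18.1 and 14.2 CPM) stood out in their cluster. Of its 10 genes 4 (40%) were expressed, against 57.3% of all protein-coding genes. The HOXA cluster had 5 of 11 (45.5%) expressed, led by HOXA5 (11.4 and 11.1 CPM). HOXC10 (11 and 9.86 CPM) and HOXD13 (2.47 and 3.32 CPM) led their clusters. SIX6, an eye and pituitary homeobox gene that TAL1 is reported to activate, had 70.1 and 65.4 CPM, while SIX2 was not detected.

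Of 14 AP-1 and EGR genes 7 (50%) were expressed, against 57.3% of all protein-coding genes. JUND (60.5 and 54.2 CPM), JUNB (37.7 and 33.8 CPM) and FOSL2 (22.7 and 22.1 CPM) led the list by CPM. EGR1, an immediate early gene, had 2.53 and 1.64 CPM, and FOS had 0 and 0.409 CPM. All 10 NFAT and NF-kB genes were expressed, led by RELA (142 and 139 CPM), as were all 7 STAT genes, led by STAT6 (145 and 156 CPM). Of 16 factors of mature T cells and helper subsets, 11 (68.8%) were expressed, against 57.3% of all protein-coding genes. EOMES had 17.6 and 16.3 CPM, while FOXP3 (0.633 and 0.864 CPM) and TBX21 (0.518 and 0.5 CPM) were low.

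The factors of other blood lineages divided. Of 17 myeloid, erythroid and progenitor factors 3 (17.6%) were expressed: CEBPB (31.6 and 24.9 CPM), ZFPM1 (29.6 and 19.8 CPM) and GATA2. NFE2, GFI1B and HOXA9 were not detected, and GATA1 had 0 and 0.0455 CPM. Of 8 B cell factors 7 (87.5%) were expressed, against 57.3% of all protein-coding genes, but the list had a median of only 2.99 CPM. BCL11A (46.1 and 45.9 CPM) led by CPM, while EBF1, IRF8, POU2F2 and SPIB had 1.21 to 3.59 CPM. PAX5, which fixes B cell identity, was not detected.

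Promoters of genes at different levels differed in their letters. For 14089 protein-coding genes a promoter of 250 bases before to 50 after the start was available from RefSeq (GRCh38.p14), which is 72.4% of them. The observed over expected CpG ratio had a median of 0.893 for the 260 genes at or above 100 CPM per kilobase, 0.540 for low genes and 0.350 for genes not detected. The ETS core CCGGAAG, searched on both strands, was in 26.5% of promoters of the 260 genes, in 5.71% of those of low genes and in 3.94% of those of genes not detected (14.3% of all). The TATA box TATAAA ran otherwise: it was in 11.9% of the 260, in 4.15% at 10 to 100 CPM per kilobase, in 4.63% of other expressed genes and in 20.02% of genes not detected (9.33% of all). The GC box GGGCGG was in 70.4% of the 260 promoters and 59.7% of all, and CCAAT in 44.6% and 36.5%. The GATA motif AGATAA was in 3.08% of the 260 and in 14.4% of genes not detected. For CAGATG these shares were 8.08% and 16.2%, and for CACGTG 11.9% and 6.44%. The median GC content was 63.3% for the 260 promoters, 65.3% at 10 to 100 CPM per kilobase, 66% for other expressed genes, 60.3% for low genes and 54.7% for genes not detected, so it did not rise with level among expressed genes. The part of base composition in the motif shares was not tested.

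The 120 bases before the start of some genes follow, on GRCh38.p14, chosen to show a TAL1 and a GATA3 promoter beside those of highly expressed genes with and without these motifs. Capitals mark matches on either strand. In TAL1 they are a GC box and the GATA motif AGATAA (7.67% of all promoters), in GATA3 an ETS core, in TCF7 a GC box, an ETS core and a TATA box, in CXCR4 a GC box and overlapping TATA boxes, and in YBX1 CCAAT on each strand and a GC box. In the 120 bases shown, CD1E has no match to these motifs, nor to CAGATG (11.4% of all promoters) or CACGTG (8.91%), and has no capitals. The percentages of all promoters are for the longer promoter window described above. They are therefore not the shares to be met in 120 bases, and the rest of the CD1E promoter is not shown.
TAL1 (chr1:47232336-47232455, minus strand): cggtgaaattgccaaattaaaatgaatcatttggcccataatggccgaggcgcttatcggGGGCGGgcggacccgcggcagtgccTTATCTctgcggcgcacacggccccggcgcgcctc
GATA3 (chr10:8045213-8045332, plus strand): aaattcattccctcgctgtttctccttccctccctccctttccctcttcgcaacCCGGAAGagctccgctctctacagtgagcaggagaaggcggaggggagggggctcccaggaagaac
TCF7 (chr5:134115493-134115612, plus strand): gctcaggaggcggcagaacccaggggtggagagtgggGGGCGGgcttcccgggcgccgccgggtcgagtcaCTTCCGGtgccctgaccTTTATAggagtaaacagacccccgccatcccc
CXCR4 (chr2:136118150-136118269, minus strand): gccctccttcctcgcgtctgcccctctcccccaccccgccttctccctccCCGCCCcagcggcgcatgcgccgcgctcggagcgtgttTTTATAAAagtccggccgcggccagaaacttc
YBX1 (chr1:42682298-42682417, plus strand): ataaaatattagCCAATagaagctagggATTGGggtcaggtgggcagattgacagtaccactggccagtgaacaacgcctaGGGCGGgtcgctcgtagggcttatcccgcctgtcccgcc
CD1E (chr1:158353774-158353893, plus strand): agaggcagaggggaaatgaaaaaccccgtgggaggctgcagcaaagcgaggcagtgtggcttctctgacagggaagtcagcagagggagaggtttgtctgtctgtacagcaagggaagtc

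The first base of the TATA match lies 32 bases before the start in both TCF7 and CXCR4. The GATA match of TAL1 lies 35 bases before its start. CD1E, at 489 CPM per kilobase, has a CpG ratio of 0.228, below the median of genes not detected, while TAL1 at 28.0 CPM per kilobase has 0.967. A match describes letters only and shows no binding.

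Of 249 surface receptor genes, 132 (53.0%) were expressed, 69 were low and 48 were not detected, against 57.3% of all protein-coding genes. Those of the T cell receptor were strong. CD3E (866 and 785 CPM), CD3D (382 and 360 CPM), CD3G (202 and 216 CPM) and CD247 (152 and 146 CPM), the signalling chains, were all expressed. TRBC2 had 722 and 607 CPM and TRAC, the alpha constant segment, 82.4 and 78.2 CPM. PTCRA, the surrogate alpha chain of the pre-T cell receptor, had 3.91 and 4.27 CPM. TRDC, the delta constant segment, was not detected. The entry named TRBC1 also had 0 counts, but its identifier had no match in the reference used for gene types and lengths. TRBC1 is a near copy of TRBC2, and how reads of both were divided is not known. Whether TRBC1 was expressed therefore remains unknown.

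Variable segments gave a narrow picture for the alpha chain. TRAV8-4, the segment known for the Jurkat receptor, had 33.9 and 33.0 CPM and held 83.0% of the summed CPM of 54 entries with TRAV names. Pseudogenes and copies were not removed from the entries of any chain. The next were TRAV18 (2.82 and 3.36 CPM) and TRAV19 (1.04 and 1 CPM), and 40 of the 54 were not detected. No beta segment dominated: TRBV7-3 led with 8.23 and 8.50 CPM, 29.6% of the sum, ahead of TRBV28 and TRBV7-8. TRBV12-3, the beta segment known for Jurkat, and its near copy TRBV12-4, both named after their values were seen, had 0 counts in both libraries. Whether reads shared by such copies were left uncounted was not tested. Among entries with TRGV names 8 of 14 were expressed, led by TRGV7 (4.66 and 4.09 CPM), with TRGC2 at 9.38 and 12.2 CPM.

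The surface antigens were those of a cortical thymocyte in part. CD1E (1068 and 1087 CPM) was the highest of 20 T-lineage antigens, of which 19 were expressed. CD1A, the classic cortical marker, had 303 and 275 CPM, CD1C 136 and 129 CPM and CD1B 112 and 105 CPM, and CD1D, which presents lipids to NKT cells, had 54.2 and 51.3 CPM. CD99 (333 and 282 CPM), CD7 (232 and 222 CPM) and PTPRC, the phosphatase CD45 (175 and 174 CPM), were also high. The coreceptors were unequal: CD4 had 67.3 and 49.5 CPM, whereas CD8A had 3.05 and 3.18 CPM and CD8B 7.08 and 5.68 CPM. CD34, a progenitor antigen, had 2.82 and 2.64 CPM. CD44, the receptor for hyaluronan, was the antigen not detected.

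**Figure D3:**
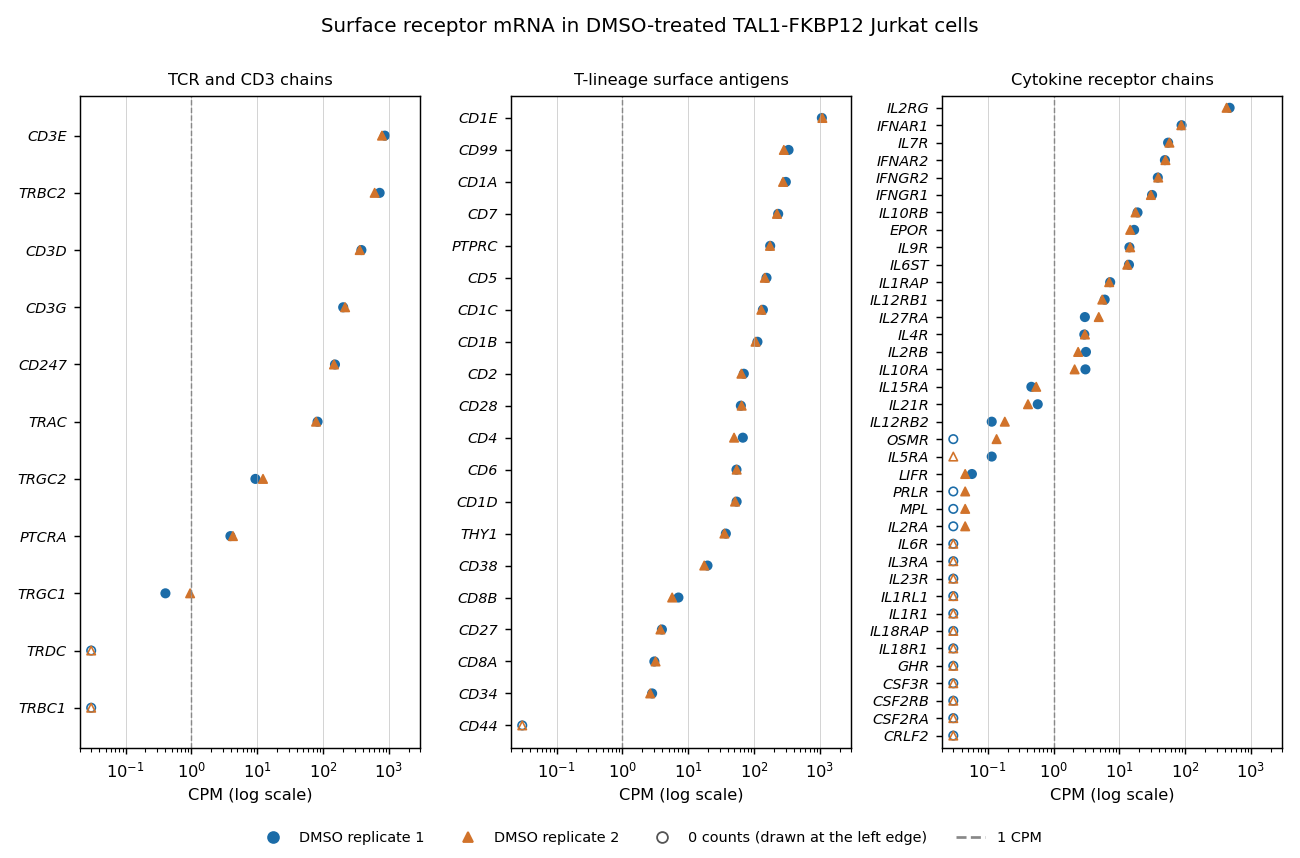
CPM (log scale) of T cell receptor and CD3 chains, T-lineage surface antigens and cytokine receptor chains in each DMSO library; circles are replicate 1, triangles replicate 2, open symbols at the left edge are 0 counts and the dashed line is 1 CPM. CD1E and CD3E lead their lists by CPM, and 12 of 37 cytokine receptor chains had 0 counts in both libraries. Per kilobase, TRBC2 (877) and CD3D (399) were above CD3E (290).

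Of 37 cytokine receptor chains 16 (43.2%) were expressed, against 57.3% of all protein-coding genes, and 12 were not detected. IL2RG, the common gamma chain, led with 473 and 425 CPM, and IL7R, its partner for interleukin 7, had 55.0 and 57.6 CPM. IL2RB had 3.11 and 2.36 CPM, and IL2RA, the high-affinity chain induced by activation, had 0 and 0.0455 CPM. The interferon receptor genes IFNAR1 (88.1 and 87.2 CPM), IFNAR2, IFNGR1 and IFNGR2 were all expressed. The myeloid growth factor receptors CSF2RA, CSF2RB and CSF3R were not detected.

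Migration and adhesion receptors differed widely in level. CXCR4, the receptor for CXCL12, had 326 and 334 CPM, while CCR7 (5.12 and 4.95 CPM) and CCR9 (0.805 and 1.41 CPM) were far lower. Of 24 chemokine and sphingosine phosphate receptors 12 (50%) were expressed, against 57.3% of all protein-coding genes. Among adhesion molecules, SPN, the sialomucin CD43, had 451 and 472 CPM and SELPLG, the ligand of P-selectin, 239 and 221 CPM. The integrin chains ITGB2 (198 and 187 CPM) and ITGAL (169 and 163 CPM), which form LFA-1, were above ITGA4 (132 and 137 CPM).

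Receptors of costimulation and exhaustion were mostly at the bottom of the range. Of 15 such receptors 5 (33.3%) were expressed, against 57.3% of all protein-coding genes. The 5 were CD47 (227 and 244 CPM), CD96 (92.4 and 85.5 CPM), CD28 (62.8 and 64.7 CPM), CD226 (47.2 and 50.2 CPM) and SIRPG (31.6 and 26.9 CPM). CTLA4, TIGIT and CD200 were not detected, and PDCD1 had 0.230 and 0.227 CPM. Of 26 TNF receptors 9 (34.6%) were expressed, led by TNFRSF1A (76.4 and 80.1 CPM) and TNFRSF8, the antigen CD30 (64.1 and 65.1 CPM), and 7 were not detected. FAS, the death receptor, had 18.6 and 18.1 CPM.

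NOTCH3 (86.6 and 81.5 CPM) and NOTCH2 (66.1 and 73.6 CPM) accompanied NOTCH1, and 6 of 9 NOTCH receptor and ligand genes (66.7%) were expressed. The ligand genes DLL3 (3.97 and 4.36 CPM), JAG2 (3.39 and 3.91 CPM) and JAG1 (2.47 and 4.59 CPM) were expressed at a few CPM, and DLL1 (0.288 and 0.227 CPM) and DLL4 (0.0575 and 0.0909 CPM) were low. In the wider NOTCH pathway list 16 of 23 genes (69.6%) were expressed, against 57.3% of all protein-coding genes. The list was led by DTX1, a ubiquitin ligase that NOTCH induces (137 and 155 CPM). HES4 (76.0 and 62.7 CPM) was above HES1 (12.7 and 12.7 CPM), both repressors induced by NOTCH. Growth factor receptors included IGF1R (121 and 133 CPM) and FLT4 (41.6 and 43.0 CPM), while FLT3 and EGFR were not detected and KIT had 0.460 and 0.273 CPM. All 12 nutrient transporters were expressed, led by SLC7A5, a leucine transporter (630 and 690 CPM), and TFRC, the transferrin receptor (434 and 474 CPM).

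Class I genes of antigen presentation were expressed, and class II genes were not. B2M had 532 and 499 CPM, HLA-C 204 and 185 CPM and HLA-B 44.7 and 43.7 CPM. HLA genes are polymorphic and alike, so their reads may be divided unevenly. The class II genes HLA-DRA (0.288 and 0 CPM) and HLA-DRB1 (0.518 and 0.682 CPM) were low, and HLA-DPB1 was not detected.

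Downstream of the receptor, 26 of 27 genes (96.3%) of proximal T cell receptor signalling were expressed, against 57.3% of all protein-coding genes. The kinases LCK (805 and 785 CPM) and ZAP70 (389 and 404 CPM) led, followed by CSK, PLCG1 and GRAP2. Of the 10 genes of antigen receptor recombination 9 (90%) were expressed. RAG1 (25.3 and 26.6 CPM) and RAG2 (35.5 and 29 CPM), the recombinase, and DNTT, which adds bases at the joints (110 and 106 CPM), were present beside the end-joining genes XRCC6 (763 and 744 CPM) and XRCC5 (606 and 629 CPM). Cytokine messages were scarce, with 7 of 29 (24.1%) expressed, below the same 57.3%. IL32 (284 and 212 CPM), TGFB1 (92.6 and 82.8 CPM) and CD40LG (88.4 and 84.4 CPM) led, and IL17A, IL6, IL3 and IL21 were among 8 not detected.

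Markers of other lineages were largely absent. Of 87 genes 12 (13.8%) were expressed, against 57.3% of all protein-coding genes, 36 were low and 39 were not detected. Of 12 myeloid markers 0 were expressed, their summed level was 0.920 and 0.773 CPM, and MPO, LYZ, ELANE, CSF1R, S100A8, CSF3R and FCGR3A had 0 counts. Of 19 erythroid and megakaryocytic markers 1 was expressed, EPOR, the erythropoietin receptor (16.7 and 14.6 CPM), and HBB and PF4 were not detected. CD34 was the 1 of 9 progenitor markers that was expressed, and EGFL7 (1.90 and 1.77 CPM) the 1 of 6 endothelial markers. Of 12 epithelial and stromal markers COL1A1, a collagen (3.8 and 1.36 CPM), and ACTA2, smooth muscle actin (2.65 and 2.23 CPM), were expressed. The epithelial markers EPCAM, CDH1, KRT18 and KRT19 were not detected either. In bulk RNA, a few cells of another type and little RNA in every cell cannot be told apart.

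Some lymphoid markers of other cells were expressed. IGLL1, a surrogate light chain of the pre-B cell receptor, had 202 and 181 CPM and exceeded 99.1% of expressed genes per kilobase. CD79A, a signalling chain of the B cell receptor, had 70.5 and 60.4 CPM. The other 8 of 10 B cell markers were not expressed, among them CD79B (0.115 and 0.0909 CPM), and CD22 and PAX5 at 0 counts. Of 12 NK and cytotoxic markers 3 were expressed, NKG7 (16 and 13.6 CPM), PRF1, which encodes perforin (9.61 and 9.91 CPM), and GZMA, a granzyme (8.17 and 6.59 CPM), while NCR1 and KLRF1 were not detected. GZMB had 0.403 and 0.273 CPM. The dendritic cell list had CD1C and BATF3 (15.6 and 13.1 CPM) expressed and 5 of 7 not detected.

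**Figure D4:**
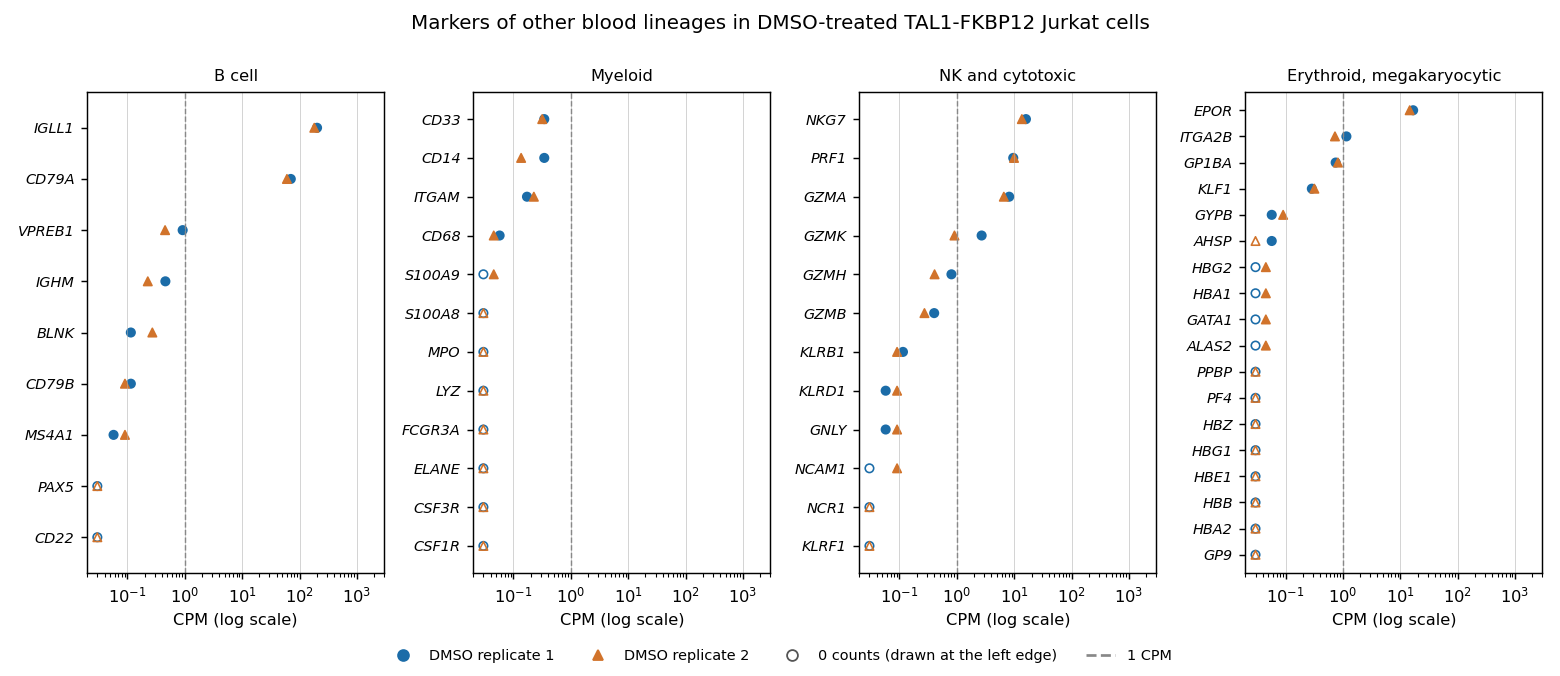
CPM (log scale) of B cell, myeloid, NK and cytotoxic, and erythroid and megakaryocytic markers in each DMSO library, with a few list members not drawn; circles are replicate 1, triangles replicate 2, open symbols at the left edge are 0 counts and the dashed line is 1 CPM. IGLL1 (202 and 181 CPM) and CD79A (70.5 and 60.4 CPM) stand above 1 CPM in the B cell list, and no myeloid marker does.

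A few genes better known from other tissues were abundant. They were chosen for that, so their number says nothing. MYO7B, a myosin of the brush border in gut and kidney, had 1624 and 1636 CPM and ranked 128 per kilobase among nuclear protein-coding genes. TSPAN7, a tetraspanin of neurons, had 271 and 240 CPM, and ALDH1A2, which makes retinoic acid, had 139 and 129 CPM. KIR3DL2, an NK cell receptor for class I molecules, had 95.5 and 98.5 CPM while KIR2DL1, the next of 6 KIR genes, had 4.26 and 5.05 CPM. KIR genes are near copies and can share reads. All 7 GIMAP genes, small GTPases of lymphocytes, were expressed, led by GIMAP5 (97.3 and 94.4 CPM) and GIMAP4 (84.8 and 78.8 CPM).

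Of 12 genes listed as reported lost or mutated in Jurkat cells, 9 (75%) were expressed and 3 were not detected. The list does not separate lost from mutated genes. Jurkat cells are reported to lack the cell cycle inhibitor CDKN2A. CDKN2A had 0 counts in both libraries, and so had its neighbours CDKN2B, MTAP and KLHL9. In the RefSeq gene order these lay in an unbroken row of 23 protein-coding genes with 0 counts, from IFNW1 to TUSC1. Of the 23, 15 are interferon genes, which unstimulated T cells would hardly express. Among all 19462 protein-coding genes 4742 were not detected. On 1 side of the row and beyond IFNB1 (0.0575 and 0.136 CPM) stood HACD4 (35.3 and 35.2 CPM) and FOCAD (36.0 and 40.0 CPM). On the other side stood CAAP1 (30.5 and 34.1 CPM) and PLAA (67.0 and 71.5 CPM). MTAP, a housekeeping enzyme of methionine metabolism, and KLHL9, a ubiquitin ligase adaptor, are widely expressed elsewhere. DNA was not measured, and whether these genes are present in the cells was not tested.

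**Figure D5:**
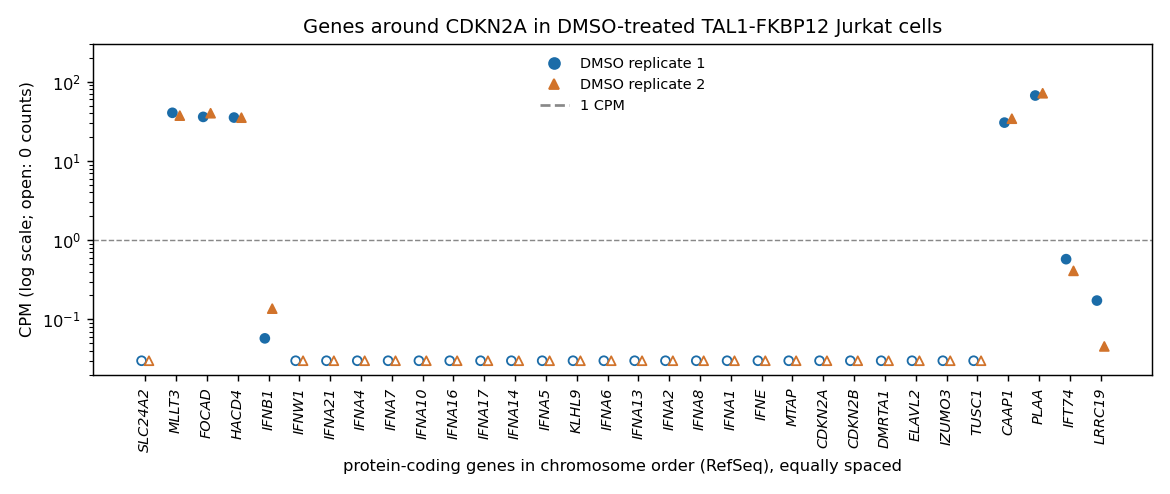
CPM (log scale, vertical axis) of protein-coding genes around CDKN2A in chromosome order, equally spaced, in each DMSO library; circles are replicate 1, triangles replicate 2, open symbols at the bottom are 0 counts and the dashed line is 1 CPM. The 23 genes from IFNW1 to TUSC1 had 0 counts, between HACD4 (35.3 and 35.2 CPM) and CAAP1 (30.5 and 34.1 CPM).

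The components that dTAG-13 would use were present without it. CRBN, the cereblon receptor, had 54.3 and 52.9 CPM, its ligase partner DDB1 571 and 594 CPM, and CUL4A 106 and 111 CPM.

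The replicates were close. In the 9352 genes that averaged 10 CPM or more, the median absolute difference was 0.08 on the log2 scale and 95% of genes differed by at most 0.25. Of these genes 4 (0.0428%) differed by over 1.5-fold. They were TXNDC5, a disulfide isomerase (15 and 6.27 CPM), PDXP, a phosphatase (24.3 and 14.9 CPM), and AC079949.1 (25.1 and 4.77 CPM) and AL161626.1 (19.7 and 5.23 CPM), the last 2 chosen after their values were known. The next in order were ZFPM1, PTMS (164 and 112 CPM) and MAP3K1 (9.49 and 13.8 CPM). The remaining differences had a direction by gene type: 77 of 83 ribosomal protein genes were lower in replicate 2, with a median log2 ratio of replicate 2 to replicate 1 of -0.17, against 0.01 for all 9352. Across 9287 of them the log2 ratio rose with exon length (Spearman correlation 0.37, across genes of the same pair of libraries, so a description only).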

How the data were processed

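The authors deposited a table of whole-number counts per gene and library for 63677 genes. Per the labels' protocols, libraries were strand-specific with paired reads of 100 bases. Per the submitters' processing notes, the tools were STAR 2.5.2a, featureCounts and DESeq2 1.12.4 on hg19. Which annotation and strand setting the counting used is not given in the sources used here. The authors' comparison tables and the 6 other libraries, apart from their use in scaling, were not analysed here.

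CPM were computed with TMM factors over all 8 libraries (edgeR 4.0.16, R 4.3.3). Exon length is the union of exons of GENCODE 29, which can understate levels per kilobase for genes with many isoforms. Gene types matched by identifier for 52526 genes and by symbol for 170. The 10981 unmatched genes held 0.398% and 0.409% of counts. With 1 group of 2 libraries no test was made. The fold calculation was tested on simulated data.

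The members and 57 gene lists were chosen with earlier results of these data known. Named genes were the 5 markers, the 20 highest nuclear genes by CPM and 15 by CPM per kilobase, 3 mitochondrial genes, each list's 5 highest and its genes at 0 where few, 3 segments a chain, and 5 genes differing most between replicates. Clone names were not eligible, and other members named were chosen after their values were seen. Some list members are counted but not reported by name here. Alternatives were other scalings, other levels for calling a gene expressed, coding length and leaving out each library.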

Additional observations from a re-analysis of the deposited data

How the results depend on the processing

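The number of expressed genes (12900) stayed between 11791 and 14180 under the scalings tried (no factors, DESeq2's size factors, TMM factors of the DMSO libraries alone, no mitochondrial counts) and with 0.5 or 2 CPM as the level. The counts of transcription factors (158 to 188), surface receptors (126 to 146) and markers of other lineages (10 to 18) stayed within 1.5 times under the same settings. Without 1 DMSO library, these counts ran from 13184 to 13202, 170 to 172, 135 to 135 and 12 to 14. The share of the 100 most abundant genes was 21.5% to 22.3% without 1 library and fell to 16.3% with mitochondrial genes left out, a setting that removes genes holding 8.02% of all counts. Leaving mitochondrial counts out of the total raised the CPM of all 14 genes checked by 8.72%, more than 1 SD between the replicates, while the other scalings kept all 14 within 1 SD. The mitochondrial share was 7.97% to 8.06% without 1 library. Of the 15 highest genes per kilobase of exon, 8 were among the 15 highest per kilobase of coding sequence and 9 among the 15 highest by CPM. At a mean of at least 1 CPM, where counts are small, 394 of 13212 genes differed by over 1.5-fold between the replicates, against 4 of 9352 at 10 CPM. No paired analysis was possible because 1 group was described and no test was made. Depth limits statements on genes with 0 counts to levels above 0.173 CPM.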

Other observations

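Several gene families had few or no expressed members, against 57.3% expressed among all protein-coding genes. Of 349 olfactory receptor genes 0 were expressed and 326 were not detected, and their summed level was 2.24 and 1.41 CPM. Of 55 keratins 3 were expressed, led by KRT1, a keratin of the outer skin (17.8 and 19.7 CPM), and KRT10, its partner (19.0 and 15.9 CPM). Of 44 collagens 7 were expressed, the highest being COL11A2 (5.98 and 7.09 CPM). Of 12 KLR genes, which encode NK cell lectin receptors, 1 was expressed, KLRG1 (4.37 and 3.73 CPM). These families were chosen after values were seen.

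Immunoglobulin segments were not wholly silent. Of 255 entries with IGHV names 9 were expressed, led by IGHV4-34 (7.31 and 7.50 CPM) and IGHV4-59 (5.87 and 5.14 CPM). Of 102 entries with IGKV names 101 had 0 counts. Pseudogenes and copies were not removed from these entries. IGHM, the mu constant region, had 0.460 and 0.227 CPM.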
